A study of Mus musculus with 15 samples.

Results

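HAVCR1, MMP7, IL2RG, LCN2, SPP1, VCAM1, SOX9, SOX4, PROM1 and CD24A are 10 genes of injured kidney tubule cells and of a cytokine receptor, followed here across tumors of 105K cells. They were chosen by symbol from the 24891 genes of the expression table. Of these, 3 genes (HAVCR1, MMP7 and IL2RG) were chosen for their measured values, because they separated sorted cells labelled sh-B7-H3 (2) from those labelled sh-B7-H3 (1), so that contrast is described without a test for every gene of the group. 105K cells come from a kidney tumor that arose in a Tsc2+/- animal and are themselves Tsc2-/-, which leaves mTORC1 active in every group, controls included. Pools of 105K cells stably carried a control shRNA (sh-NC) or 1 of 2 shRNAs aimed at Cd276, the gene of the immune checkpoint molecule B7-H3, and were injected under the skin of 6-week-old male C57BL/6J mice. RNA was sequenced from 15 libraries, 3 from each of 5 groups: bulk sh-NC tumors, bulk sh-B7-H3 (1) tumors, and cells sorted from tumors that carried sh-NC, shRNA (1) or shRNA (2). Bulk tumors hold host leukocytes, vessels and stroma beside the tumor cells, whereas sorted cells are what remained once host cells had been removed on magnetic beads. The tumors tell about subcutaneous grafts of 1 cell line, and the shRNA cells were selected pools, not clones. The comparison of shRNA with control was made to ask how loss of B7-H3 alters the tumor cell transcriptome.

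KIM-1, the product of HAVCR1, is a phosphatidylserine receptor that appears on proximal tubule cells after injury and is used as a urinary marker, as is lipocalin 2 (NGAL), the iron-siderophore carrier encoded by LCN2. Injured tubules also turn on the matrix metalloproteinase MMP7, the secreted phosphoprotein osteopontin (SPP1) and the adhesion molecule VCAM1, and they re-express the developmental transcription factors SOX9 and SOX4 and the surface proteins prominin-1 (PROM1) and CD24 (CD24A), which also mark tubular progenitor cells. IL2RG encodes the common gamma chain shared by the receptors for IL-2, IL-4, IL-7, IL-9, IL-15 and IL-21, which signals through JAK3 to STAT proteins and is best known from lymphocytes.

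The sequences upstream of HAVCR1, MMP7 and IL2RG are shown because these 3 genes were high together in 1 group of libraries. They were taken from RefSeq for build GRCm38.p6, each covers the 250 bases before an annotated start, and capitals mark matches to the motifs named next. RefSeq gives 3 starts for HAVCR1, of which the second is shown, and 2 for MMP7, of which the first is shown. The bases just after the start lay in 4 GENCODE transcripts for the third HAVCR1 start, in 1 for the second and in 0 for the first. The HAVCR1 start shown is thus not the one held in the most transcripts.
HAVCR1 at chr11:46750261-46750510, plus strand: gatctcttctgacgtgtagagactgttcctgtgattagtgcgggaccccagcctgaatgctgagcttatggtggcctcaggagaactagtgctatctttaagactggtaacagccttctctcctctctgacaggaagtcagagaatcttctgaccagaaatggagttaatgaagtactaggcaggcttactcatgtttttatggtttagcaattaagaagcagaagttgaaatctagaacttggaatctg
MMP7 at chr9:7691840-7692089, plus strand: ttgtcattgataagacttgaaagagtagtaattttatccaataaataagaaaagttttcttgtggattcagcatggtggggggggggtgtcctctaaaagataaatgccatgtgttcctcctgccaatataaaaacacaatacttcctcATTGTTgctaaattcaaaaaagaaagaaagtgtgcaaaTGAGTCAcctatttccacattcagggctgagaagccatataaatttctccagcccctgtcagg
IL2RG at chrX:101268256-101268505, minus strand: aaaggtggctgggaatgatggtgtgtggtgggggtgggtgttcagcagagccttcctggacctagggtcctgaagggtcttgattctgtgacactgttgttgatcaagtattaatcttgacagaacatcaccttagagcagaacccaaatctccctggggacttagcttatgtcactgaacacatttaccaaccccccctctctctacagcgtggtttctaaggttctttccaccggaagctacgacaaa
The MMP7 window held an AP-1 motif (TGANTCA) and, on the opposite strand, a SOX motif (AACAAT). On both strands, AP-1 was found in 6.75% and SOX in 9.42% of 32851 such windows over all genes. The windows of HAVCR1 and IL2RG held neither of these, nor a TCF/LEF motif (ATCAAAG), a STAT motif (TTCNNNGAA) or an NF-kB motif, which occurred in 3.21%, 7.02% and 1.41% of windows. None of these matches overlapped another, and a match describes letters, not binding. Among the other genes with a listed window (LCN2, SPP1, SOX4 and PROM1), PROM1 held AP-1 in each of its 2 windows and the other 3 genes held none of the 5 motifs. The second MMP7 window, not shown, held a SOX and a TCF/LEF motif, and the other 2 HAVCR1 windows held none. VCAM1, SOX9 and CD24A had no listed window.

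Values are FPKM (fragments scaled to gene length and library size), divided by a scaling factor for each library and here called scaled FPKM, so levels are per length and can be set side by side between genes. Differences are on the log2(scaled FPKM + 1) scale, which understates changes of low genes, and a gene was tested with limma where at least 3 libraries of a comparison reached 1 scaled FPKM. Genes with a Benjamini-Hochberg adjusted p below 0.05 over all genes tested were called. Read totals were not given, and the spacing of the lowest values put library depth between 0.468 and 1 times that of sorted sh-NC replicate 1. CD276, the shRNA target, had 34.0, 20.0 and 17.3 scaled FPKM in sorted sh-NC cells, 7.29, 14.0 and 11.5 in cells labelled sh-B7-H3 (1), and 23.3, 25.4 and 25.7 in cells labelled sh-B7-H3 (2). The libraries labelled sh-B7-H3 (2) thus were not below the control, and neither were bulk sh-B7-H3 (1) tumors (17.8 to 24.4, against 20.8 to 23.5 in bulk sh-NC), so all directions below are directions between labels. The labelled tissue was checked by 7 epithelial markers, whose summed level was 857 to 1393 in bulk tumors, 1003 to 1136 in sorted sh-NC cells and 1820 to 2145 in the 6 sorted libraries labelled sh-B7-H3. The sum of 10 leukocyte markers was 314 to 622 in bulk tumors and 5.01 to 10.9 in 8 of 9 sorted libraries. Sorted sh-B7-H3 (2) replicate 1 stood apart, with a leukocyte sum of 327.9 and an endothelial sum of 23.0 that was at most 0.856 in the other sorted libraries. PTPRC, the pan-leukocyte phosphatase CD45, was at 12.0 in that library and at 0.120 and 0.0660 in the other sh-B7-H3 (2) libraries. Values that rest on that group are therefore given for each library.

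HAVCR1, the KIM-1 gene (chr11:46739822-46779578, plus strand), was high in sorted sh-B7-H3 (2) cells and at most 1.53 scaled FPKM elsewhere. Its level was 17.2, 78.8 and 75.1 scaled FPKM in replicates 1, 2 and 3 of that group. It was 0.0217, 0 and 0.0295 in sorted sh-B7-H3 (1) cells and 0.182, 0.527 and 0.947 in sorted sh-NC cells. Every sh-B7-H3 (2) library lay above every other sorted library, and every sh-B7-H3 (1) library lay below every sorted sh-NC library. The lowest of the sh-B7-H3 (2) values belonged to replicate 1, the library with leukocyte transcripts. In units of the smallest value that HAVCR1 took above 0, corrected for depth, the sorted sh-B7-H3 (1) libraries stood at 1.00, 0 and 2.00, the sh-NC libraries at 12.0, 21.0 and 57.5, and the sh-B7-H3 (2) libraries at 708 to 3802, so the level in sh-B7-H3 (1) cells was too close to 0 for a ratio. Against sorted sh-NC, the mean in sh-B7-H3 (2) cells (57.0 ± 34.5, SD, n = 3) was 103 times the control mean (0.552 ± 0.383, SD, n = 3). In bulk tumors HAVCR1 was 1.53, 0.0732 and 0.0983 with sh-NC and 0.0786, 0.0706 and 0.0335 with sh-B7-H3 (1), and only bulk sh-NC replicate 1 reached 1 scaled FPKM, so the gene was not tested there.

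MMP7, a secreted metalloproteinase (chr9:7692090-7699585, plus strand), had the evenest high level of the 3 genes. In sorted sh-B7-H3 (2) cells it was 25.8, 27.6 and 30.4 scaled FPKM, a mean of 27.9 ± 2.30 (SD, n = 3). Sorted sh-B7-H3 (1) cells had 2.23, 4.81 and 0.854, and sorted sh-NC cells had 0.234, 1.84 and 0.731. The sh-B7-H3 (2) libraries did not overlap any other group, with a mean 10.6 times that of sh-B7-H3 (1) and 29.9 times that of sh-NC, while the sh-B7-H3 (1) and sh-NC libraries overlapped. Bulk tumors lay in the same low range, at 1.74, 0.537 and 0.986 with sh-NC and 1.15, 4.65 and 0.388 with sh-B7-H3 (1). On the other strand, exons of the antisense gene AV064505 overlap MMP7, and the strand used in counting was not stated.

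IL2RG, the common gamma chain (chrX:101264385-101268255, minus strand), was high in 2 kinds of library, bulk tumors and sorted sh-B7-H3 (2) cells. Sorted sh-B7-H3 (2) cells had 8.34, 18.8 and 17.3 scaled FPKM. Sorted sh-B7-H3 (1) cells had 0.571, 0.252 and 0.508, and sorted sh-NC cells had 0.484, 0.344 and 0.395, and these last 2 groups overlapped. The mean of sh-B7-H3 (2) cells (14.8 ± 5.63, SD, n = 3) was 33.3 times that of sh-B7-H3 (1) cells and, without replicate 1, 40.6 times. Bulk tumors had 5.52, 5.23 and 5.96 with sh-NC and 9.78, 13.6 and 6.80 with sh-B7-H3 (1). Exons of the protein-coding gene Gm20489 overlap IL2RG on the same strand, so reads of the 2 genes could be shared. Exons of other genes also overlap SPP1, VCAM1, SOX4 and PROM1, but not HAVCR1, LCN2, SOX9 or CD24A.

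IL2RG is a leukocyte gene in most tissues, so its level was set beside the leukocyte sum. Per 100 units of that sum, IL2RG stood at 1.202 to 2.19 in the 6 bulk libraries and at 2.54 to 6.88 in the 6 sorted sh-NC and sh-B7-H3 (1) libraries. In sorted sh-B7-H3 (2) cells it stood at 2.54 in replicate 1 but at 299.5 and 259.3 in replicates 2 and 3. The 2 libraries with the highest IL2RG of all 15 therefore had leukocyte sums of 6.26 and 6.66, within the range of the other sorted cells, while replicate 1 lay beside the bulk tumors on both measures. In replicates 2 and 3 each of the 10 leukocyte markers was above 0 and none exceeded 2.11. Their macrophage and B cell marker sums did not exceed the highest of the sorted sh-NC and sh-B7-H3 (1) libraries. Their neutrophil marker sums, 2.24 and 1.76, exceeded all of those libraries. NCF4 was 4.74 and 4.05, against at most 0.216 in those libraries and 3.795 to 8.31 in bulk tumors. STFA3 was 4.91 and 6.09, against at most 0.176 in those libraries. The part of these transcripts in the IL2RG level was not tested. In bulk tumors, the number of leukocytes and the RNA per leukocyte cannot be told apart.

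**Figure D1:**
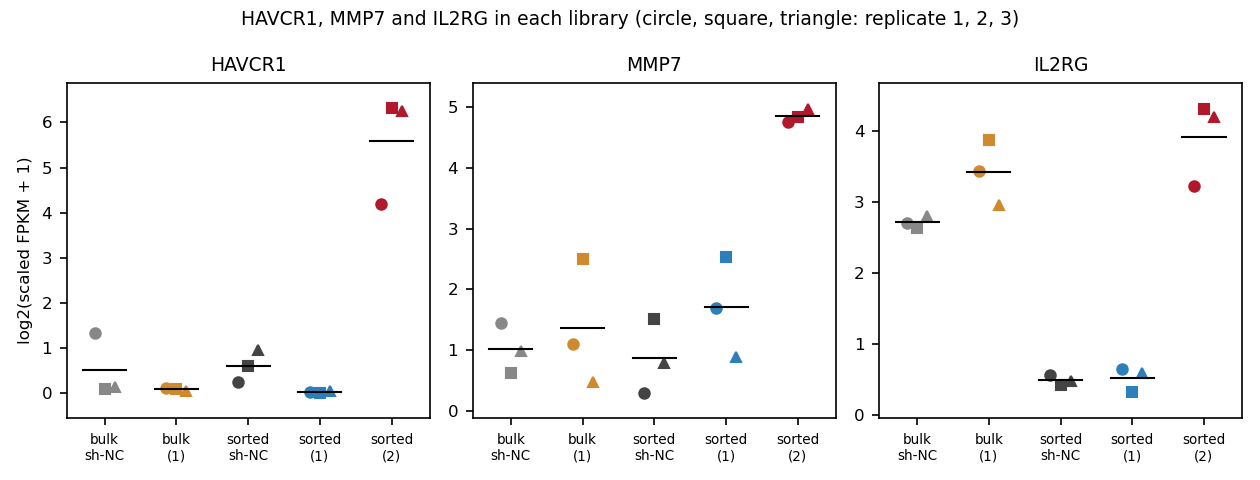
Each point is 1 library, the horizontal axis gives the group and the vertical axis log2(scaled FPKM + 1), with a line at the mean of 3 libraries. HAVCR1 and MMP7 were at 17.2 scaled FPKM or more in the sorted sh-B7-H3 (2) libraries and at 4.81 or less in the other 12 libraries, and IL2RG was also high in the bulk tumors.

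**Figure D2:**
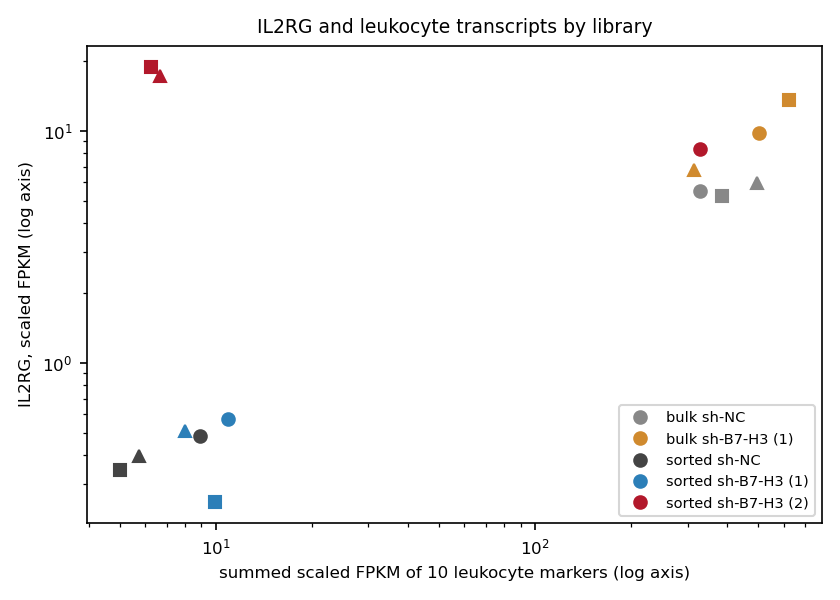
IL2RG (vertical log axis, scaled FPKM) against the summed scaled FPKM of 10 leukocyte markers (horizontal log axis) in each library, with circle, square and triangle for replicates 1, 2 and 3. Sorted sh-B7-H3 (2) replicates 2 and 3 stand at the upper left, with IL2RG at 18.8 and 17.3 and leukocyte sums of 6.26 and 6.66.

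The order of group means differed between these genes. For HAVCR1 it ran from sorted sh-B7-H3 (2) over bulk sh-NC (0.568) and sorted sh-NC (0.552) to bulk sh-B7-H3 (1) (0.0609) and sorted sh-B7-H3 (1) (0.0171). Bulk sh-NC overlapped sorted sh-NC and bulk sh-B7-H3 (1), and the other groups did not overlap. For MMP7 the 4 groups below sorted sh-B7-H3 (2) all overlapped. For IL2RG, sorted sh-B7-H3 (2) overlapped bulk sh-B7-H3 (1) (10.1), which lay above bulk sh-NC (5.57) without overlap, and the other 2 sorted groups came last. As all 10 genes share the libraries that chose 3 of them, the difference between the shRNAs is a description also for the others. In sh-B7-H3 (2) cells relative to shRNA (1), 5 of 10 genes were higher without overlap (HAVCR1, MMP7, IL2RG, VCAM1 and PROM1), 1 was lower without overlap (LCN2), and SPP1, SOX9, SOX4 and CD24A overlapped. Of all genes tested in that contrast, 13.9% were higher and 13.2% lower without overlap, and nothing is read from the members' count, since 3 of the 5 were chosen for it.

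The genes whose log2 levels were most like these 3 were sought over the 9 sorted libraries among 11278 genes averaging 1 scaled FPKM or more. For HAVCR1 they were CDKN2B, an inhibitor of cyclin-dependent kinases (Pearson's r = 0.992), NCF4 (0.979) and CAVIN2 (0.976). For IL2RG they were NCF4 (0.991), CAVIN2 (0.988) and REM2 (0.977), and for MMP7 they were ZNHIT6 (0.970), COG6 (0.962) and TRMT44 (0.962). HAVCR1 and IL2RG correlated at 0.989 with each other, HAVCR1 and MMP7 at 0.904, and MMP7 and IL2RG at 0.921. These values describe points that fall into 2 clusters, the 3 sh-B7-H3 (2) libraries and the rest, so any gene that separates them scores high. The lists changed without sorted sh-B7-H3 (2) replicate 1. Over the remaining 8 libraries, CDKN2B stayed closest to HAVCR1 (0.998), followed by IL1RL1 and EPDR1 (0.995 for the latter). IL2RG was then closest to AVPR1A (0.998), IL1RL1 (0.997) and STFA3 (0.996), and MMP7 to LDHB (0.976), CCDC198 (0.976) and KCNJ15 (0.974). CDKN2B itself had 1.94, 6.72 and 7.03 scaled FPKM in sh-B7-H3 (2) cells and at most 0.415 in the other sorted libraries. IL1RL1, the IL-33 receptor, had 0.998, 9.86 and 10.2 in sh-B7-H3 (2) cells and at most 0.244 in the other sorted libraries.

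Among the other 7 genes, LCN2, VCAM1 and PROM1 were higher with either shRNA than with sh-NC in sorted cells, and SPP1, SOX9, SOX4 and CD24A did not pass the test. These 7 genes too were picked with earlier results of these data known, so the share of them called is not that of a blind pick. With both shRNAs taken as 1 group of 6 libraries against 3 sh-NC libraries, 3 of these 7 genes were called higher (LCN2, VCAM1 and PROM1) and none lower, beside 12.6% and 7.92% of all genes. LCN2 (chr2:32384637-32387739, minus strand) had 235.5, 238 and 140 scaled FPKM in sh-NC cells, 1973, 2081 and 1790 in sh-B7-H3 (1) cells and 1678, 1646 and 1728 in sh-B7-H3 (2) cells. All 6 sh-B7-H3 libraries lay above the 3 sh-NC libraries, by 3.18 on the log2 scale (standard error 0.19, limma adjusted p = 1.54e-06, exact two-sided permutation p = 0.0119, the smallest that 6 against 3 allow). Both tests treat the 6 libraries as independent, although same-numbered libraries of the 2 shRNAs varied together. With each shRNA alone the exact permutation p of LCN2 was 0.1, the smallest that 3 against 3 allow. LCN2 is also a neutrophil gene, and the sum of 6 neutrophil markers was at most 2.24 in these libraries except for 11.1 in sorted sh-B7-H3 (2) replicate 1, whose LCN2 lay between those of replicates 2 and 3.

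PROM1, the gene of prominin-1 (chr5:43993621-44102047, minus strand), had 29.1, 28.0 and 20.8 scaled FPKM in sorted sh-NC cells. It had 90.6, 82.3 and 58.5 in sh-B7-H3 (1) cells and 129.0, 144 and 152 in sh-B7-H3 (2) cells. The 3 groups did not overlap, and the log2 difference of both shRNAs from sh-NC was 1.97 (standard error 0.28, limma adjusted p = 0.00064). VCAM1, an adhesion molecule that binds leukocyte integrins (chr3:116110020-116129688, minus strand), had 9.52, 8.10 and 7.62 in sh-NC cells, 21.8, 19.9 and 16.6 in sh-B7-H3 (1) cells and 54.4, 39.2 and 39.8 in sh-B7-H3 (2) cells. Again no libraries overlapped between groups, and the log2 difference was 1.69 (standard error 0.33, limma adjusted p = 0.00484). The highest VCAM1 value was that of sh-B7-H3 (2) replicate 1, the library with endothelial and leukocyte transcripts. The fibroblast marker sum was 153.6, 119.8 and 120.6 in sh-B7-H3 (2) cells, above the 55.7 to 84.2 of sh-B7-H3 (1) and the 35.9 to 81.4 of sh-NC cells. Its markers did not move alike. COL1A1, COL1A2, COL3A1 and PDGFRA were higher in sh-B7-H3 (2) cells without overlap, whereas PDGFRB, DCN and LUM overlapped. The part of endothelial cells, leukocytes and fibroblasts in VCAM1 was not tested. The mean VCAM1 of replicates 2 and 3 alone (39.5) was 2.03 times that of sh-B7-H3 (1).

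For HAVCR1, MMP7 and IL2RG the mean log2 difference of both shRNAs from sh-NC was 2.20, 2.41 and 1.72, given without a test because the libraries that chose the genes enter it. HAVCR1 and IL2RG reached 1 scaled FPKM only in the sh-B7-H3 (2) libraries among sorted cells.

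Each shRNA was then set against the same 3 sh-NC libraries, for the 7 genes other than HAVCR1, MMP7 and IL2RG. With sh-B7-H3 (1), 3 of 7 were called higher and none lower, beside 9.03% and 4.38% of all genes. LCN2 rose by 3.28 on the log2 scale (standard error 0.24, limma adjusted p = 0.00011), PROM1 by 1.53 (standard error 0.20, limma adjusted p = 0.00165) and VCAM1 by 1.12 (standard error 0.15, limma adjusted p = 0.00159). With a leukocyte score as covariate, LCN2 alone passed, PROM1 and VCAM1 being at adjusted p = 0.0518 and 0.0526. With sh-B7-H3 (2), the same 3 of 7 were called higher and none lower, beside 11.7% and 7.44% of all genes. LCN2 rose by 3.08 (standard error 0.24, limma adjusted p = 0.000144), PROM1 by 2.42 (standard error 0.16, limma adjusted p = 8.03e-05) and VCAM1 by 2.26 (standard error 0.16, limma adjusted p = 0.000106).

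SPP1, the osteopontin gene (chr5:104435111-104441053, plus strand), had the highest mean of the 10 genes in each of the 5 groups, narrowly so in bulk sh-B7-H3 (1) tumors (2468 against 2438 for LCN2), and split within sorted sh-B7-H3 (2) cells. Sorted sh-NC cells had 4608, 5741 and 6082 scaled FPKM and sh-B7-H3 (1) cells had 3242, 3745 and 3656, all below the control, with a log2 difference of -0.62 (limma adjusted p = 0.21). Sorted sh-B7-H3 (2) cells had 3202, 9242 and 9111, so replicate 1 was the lowest of the 9 sorted libraries and replicates 2 and 3 the highest. The log2 difference from sh-NC was 0.25 with a 95% interval from -0.88 to 1.38 (limma adjusted p = 0.774).

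The transcription factors SOX9 (chr11:112782210-112787757, plus strand) and SOX4 (chr13:28948919-28953699, minus strand), which act in tubule development and repair, were not called in any comparison. SOX9 was 63.9, 46.5 and 39.9 in sorted sh-NC cells, 51.3, 59.1 and 71.5 in sh-B7-H3 (1) cells and 47.1, 58.2 and 47.2 in sh-B7-H3 (2) cells, and all 3 groups overlapped. Its log2 difference for both shRNAs had a 95% interval from -0.22 to 0.54. SOX4 was 78.4, 60.5 and 63.5 with sh-NC, 53.5, 56.6 and 68.3 with sh-B7-H3 (1) and 43.7, 66.6 and 53.7 with sh-B7-H3 (2), with an interval from -0.58 to 0.09. CD24A, a mucin-like surface protein (chr10:43579169-43584265, plus strand), was 661, 713 and 599 with sh-NC, 1024, 940.3 and 752 with sh-B7-H3 (1) and 833, 802 and 670.3 with sh-B7-H3 (2). All sh-B7-H3 (1) libraries were above sh-NC and the sh-B7-H3 (2) libraries overlapped it, with an interval from -0.01 to 0.69 for both shRNAs (limma adjusted p = 0.167). CD24A passed when the deposited FPKM were used without scaling (limma adjusted p = 0.0393).

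**Figure D3:**
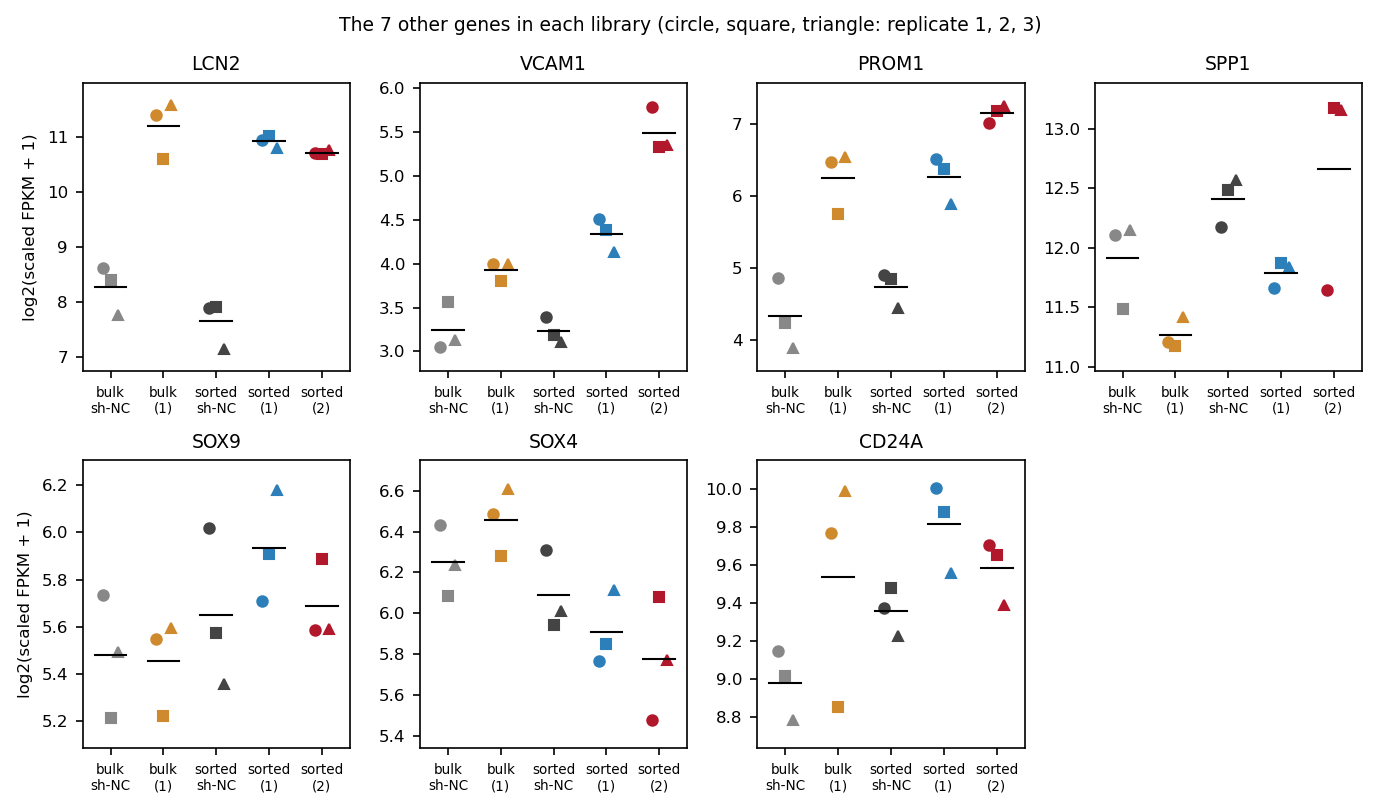
Each point is 1 library, with the group on the horizontal axis and log2(scaled FPKM + 1) on the vertical axis, which does not start at 0, and a line at the mean of 3 libraries. LCN2, VCAM1 and PROM1 stand higher in every sorted sh-B7-H3 library than in every sorted sh-NC library, and SPP1 has sorted sh-B7-H3 (2) replicate 1 far below replicates 2 and 3.

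Bulk tumors, which the choice of HAVCR1, MMP7 and IL2RG did not use, showed whether sh-B7-H3 (1) tumors differed from sh-NC tumors when host cells were kept. Of 9 tested genes (HAVCR1 was too low), 3 were called higher and none lower, beside 12.8% and 8.52% of all genes. LCN2 was 393, 338 and 215.5 scaled FPKM with sh-NC and 2699, 1555 and 3061 with sh-B7-H3 (1), a log2 difference of 2.93 (standard error 0.32, limma adjusted p = 0.00308). PROM1 was 28.1, 17.9 and 13.9 with sh-NC and 88.4, 52.8 and 92.1 with sh-B7-H3 (1), a difference of 1.92 (standard error 0.30, limma adjusted p = 0.00792). Neither gene's libraries overlapped. The epithelial marker sum moved the same way, at 857 to 964 with sh-NC and 1126 to 1393 with sh-B7-H3 (1), and its part in these results was not tested. Its markers did not move alike. EPCAM, KRT18, KRT19 and ESRP1 were higher with sh-B7-H3 (1) without overlap, whereas CDH1, KRT8 and CLDN4 overlapped. CDH1 was 202, 173 and 183 with sh-NC and 178, 142 and 193 with sh-B7-H3 (1). The neutrophil marker sum was lower with sh-B7-H3 (1) (2.10 to 3.66) than with sh-NC (5.47 to 11.2). Its part in LCN2 was not tested. The difference in that sum lay mainly in S100A8 and S100A9. CSF3R was not lower, at 1.46, 1.61 and 0.741 with sh-B7-H3 (1) and 0.639, 0.996 and 0.732 with sh-NC. CXCR2, RETNLG and LY6G were at most 0.465 in every bulk library.

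VCAM1 was 7.26, 10.8 and 7.76 in bulk sh-NC and 14.98, 12.98 and 14.99 in bulk sh-B7-H3 (1) tumors, a difference of 0.69 (standard error 0.15, limma adjusted p = 0.0241), and this call was lost on deposited FPKM (adjusted p = 0.205) and without bulk sh-B7-H3 (1) replicate 1 (0.107) or 3 (0.0532) or bulk sh-NC replicate 1 (0.0663) or 3 (0.0919). The sum of 7 fibroblast markers, at 90.04 to 171 with sh-NC and 277 to 653 with sh-B7-H3 (1), moved with VCAM1, and its part was not tested. Of these markers, COL1A1, COL1A2, COL3A1, PDGFRA and LUM were higher with sh-B7-H3 (1) without overlap, whereas PDGFRB and DCN overlapped. IL2RG did not overlap between the groups but was not called, at 0.71 (standard error 0.22, limma adjusted p = 0.0581), while without bulk sh-B7-H3 (1) replicate 3 it was (0.0129). The T cell marker sum was 1.40 to 2.58 with sh-NC and 5.80 to 18.6 with sh-B7-H3 (1), lowest in replicate 3 as IL2RG was, and its part in the IL2RG level was not tested. SPP1 was 4409, 2861 and 4529 with sh-NC and 2364, 2309 and 2730 with sh-B7-H3 (1), at -0.65 (limma adjusted p = 0.0784). MMP7 (0.34), CD24A (0.55), SOX4 (0.21) and SOX9 (-0.02) had adjusted p values from 0.2 to 0.925, and without bulk sh-B7-H3 (1) replicate 2, whose CD24A was 461 against 869.6 and 1014 in the others, CD24A was called (limma adjusted p = 0.00879).

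**Figure D4:**
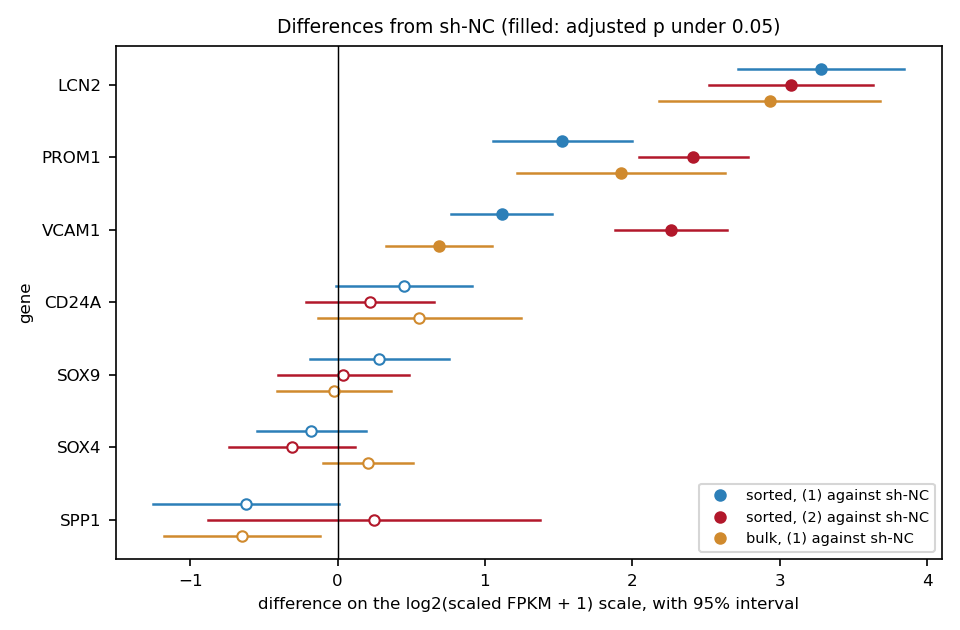
Differences from sh-NC on the log2(scaled FPKM + 1) scale (horizontal axis) for the 7 genes other than HAVCR1, MMP7 and IL2RG (vertical axis). Bars give the 95% interval from limma, and filled points an adjusted p under 0.05. LCN2, PROM1 and VCAM1 are filled in all 3 comparisons, and the 2 sorted comparisons share their sh-NC libraries.

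The sh-B7-H3 (1) difference was compared between sorted cells and bulk tumors by an interaction term in limma for the same 7 genes. None of the 7 was called, beside 0.464% of all genes, and 0 of 7 had an unadjusted p under 0.05. The estimates with the smallest p were 0.43 for VCAM1, higher in sorted cells (95% interval from -0.04 to 0.90, limma adjusted p = 0.371), and -0.38 for SOX4 (95% interval from -0.84 to 0.07, limma adjusted p = 0.396). For LCN2 the interval ran from -0.57 to 1.28 and for PROM1 from -1.25 to 0.46. In control tumors, bulk against sorted, IL2RG was 5.23 to 5.96 scaled FPKM in bulk and 0.344 to 0.484 in sorted cells, with the leukocyte sum at 327 to 496 and 5.01 to 8.92. Its log2 difference of 2.22 is given without a test, since it reached 1 scaled FPKM in the bulk libraries alone. Of the other 7 genes with a high enough level, none was called by limma in either direction, beside 10.4% of all genes higher in bulk and 6.48% lower, and none had an unadjusted p under 0.05. LCN2, VCAM1, PROM1, SPP1, SOX9, SOX4 and CD24A lay between -0.50 and 0.62 with adjusted p values from 0.179 to 0.95.

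A list of 32 other genes of tubule injury did not move in 1 direction. For both shRNAs against sh-NC in sorted cells, 13 of 30 tested genes were called higher and 5 lower, beside 12.6% and 7.92% of all genes, with a median log2 difference of 0.28 beside 0.01 over all genes. Of the 13, ICAM1, KRT20 and CXCL2 were below 1 scaled FPKM in every sh-NC library and so were tested only through the shRNA groups. The neutrophil chemokine CXCL1 rose by 2.19, and the intermediate filament gene VIM, which injured tubules are known to raise, fell by 1.75 (limma adjusted p = 0.00154 and 7.02e-05). The counts, which hold the same 3 genes, were 10 higher and 4 lower with sh-B7-H3 (1), beside 9.03% and 4.38% of all genes, and 14 higher and 3 lower with sh-B7-H3 (2), beside 11.7% and 7.44%. The latter became 9 and 2 of 27 without sh-B7-H3 (2) replicate 1, when the share of all genes called higher also fell, to 7.38%. In bulk tumors 9 of 30 were higher, with KRT20 below 1 in every sh-NC library, and 9 lower, beside 12.8% and 8.52% of all genes, among them KRT19 (1.39) and the complement gene C3 (1.33) higher and the stress cytokine GDF15 lower by 1.42. Between the shRNAs, CCL2, a monocyte chemokine, was the single list gene called, beside 1.64% of all genes called higher and 1.76% lower, at 1.76 higher in sh-B7-H3 (2) cells (limma adjusted p = 0.00942), with 41.1, 56.4 and 57.0 scaled FPKM against 18.2, 9.99 and 16.1. In that contrast same-numbered libraries varied together, and with the replicate block 6 list genes were higher and 2 lower, beside 1864 instead of 382 of all genes. Without sh-B7-H3 (2) replicate 1 the counts were 4 and 0, beside 4.27% of all genes called higher.

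Among 22 other genes of common gamma chain signaling, 13 reached the level for a test in sorted cells, and IL2RG stood apart from its partners. For both shRNAs, SOCS1, a feedback inhibitor of JAK kinases, was higher (1.52, limma adjusted p = 0.000219), and JAK1 was lower (-0.44, limma adjusted p = 0.0477), a call lost without sh-B7-H3 (2) replicate 1. The cytokine IL15 was at 0.312 to 0.692 scaled FPKM with sh-NC and at 1.97 to 4.50 in the 6 sh-B7-H3 libraries, and so reached the level for a test only in the latter. The receptor chains IL2RB and IL7R, which pair with the common gamma chain, were at 0.162 and 0.211 and at 0 and 0 scaled FPKM in sh-B7-H3 (2) replicates 2 and 3, where IL2RG was highest. IL21R was at 0.0168 and 0 in these libraries. IL4RA and IL15RA were at 7.16 and 7.56 and at 2.64 and 2.70, and the kinase JAK3 at 3.59 and 3.80. In replicate 1, which carried leukocyte transcripts, IL2RB, IL7R and IL21R were at 3.37, 1.84 and 2.56. Between the shRNAs, IL15RA was the 1 list gene called, lower in sh-B7-H3 (2) cells (-0.53, limma adjusted p = 0.0364). With the replicate block 1 gene was higher and 1 lower, beside 1864 of 11239 genes called in either direction. IL2RA, the IL-2 receptor alpha chain of activated T cells, was at 0.64, 0.49 and 0.35 in bulk sh-NC and at 4.35, 2.64 and 1.18 in bulk sh-B7-H3 (1) tumors, and reached 1 only in the latter. None of the other 14 tested list genes was called in bulk tumors, beside 12.8% of all genes called higher and 8.52% lower.

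Of 22 other matrix metalloproteinases and their TIMP inhibitors, 10 were tested for both shRNAs in sorted cells. The membrane-bound protease MMP15 was higher (2.07, limma adjusted p = 1.56e-05) and MMP11 lower (-0.52, limma adjusted p = 0.0159). MMP15 had 26.4, 25.9 and 30.3 scaled FPKM with sh-B7-H3 (1) and 36.6, 35.7 and 36.8 with sh-B7-H3 (2), against 8.99, 6.81 and 5.04 with sh-NC, and neither sh-B7-H3 group overlapped sh-NC. In bulk tumors MMP15 was higher (1.59) and the macrophage elastase MMP12 lower (-1.55) with sh-B7-H3 (1), with limma adjusted p = 0.00372 and 0.0198. Between the shRNAs none of the 10 was called, and with the replicate block 4 were higher, beside 1864 of 11239 genes called in either direction. MMP12 was at 18.7, 12.4 and 21.9 in bulk sh-NC tumors and at 0.153 to 0.184 in sorted sh-NC cells.

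Of 11 receptors for osteopontin and VCAM1, 8 were tested for both shRNAs in sorted cells. ITGB6, the beta chain of an integrin of epithelial cells, had 1.62, 1.65 and 1.11 scaled FPKM with sh-NC, 14.7, 11.1 and 9.46 with sh-B7-H3 (1) and 11.5, 10.8 and 10.1 with sh-B7-H3 (2), a log2 difference of 2.31 (limma adjusted p = 1.59e-06). ITGB7, a leukocyte integrin chain, reached 1 in 3 sorted libraries, all with an shRNA to B7-H3, and without sh-B7-H3 (2) replicate 1 it was not tested. The hyaluronan and osteopontin receptor CD44 was at 93.3 to 120 with sh-NC and at 87.4 to 97.8 in the 6 sh-B7-H3 libraries, and was not called (-0.20, limma adjusted p = 0.209). Of 5 genes of the KIM-1 family and the NGAL receptors, none reached the level for a test in sorted cells. TIMD2, a relative of HAVCR1, was at 0.0297, 0.137 and 0.133 in sh-B7-H3 (2) cells and at 0 in the other 6 sorted libraries. These levels are near 0 and stand in the order of HAVCR1 in the same libraries (17.2, 78.8 and 75.1). The 2 genes were not told apart by any test.

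Of 17 other SOX genes, SOX13 was the 1 tested in sorted cells and was higher with both shRNAs (0.75, limma adjusted p = 0.000694), which was not the case for SOX9 and SOX4. Of 9 epithelial progenitor genes, 7 were tested and 4 called higher for both shRNAs, beside 12.6% of all genes, among them EPCAM at 2.90 and the keratins KRT19 at 1.64 and KRT7 at 1.44, which are also on the injury list (limma adjusted p = 2.47e-06, 1.6e-05 and 6.03e-05). The same number was called with each shRNA and in bulk tumors, beside 9.03%, 11.7% and 12.8% of all genes. EPCAM, an epithelial adhesion molecule, had 20.3, 27.4 and 17.2 scaled FPKM in sorted sh-NC cells and 126 to 221 in the 6 sorted sh-B7-H3 libraries. Of 15 genes of differentiated proximal tubules, 2 were tested for both shRNAs, and GGT1, the brush border gamma-glutamyltransferase, was higher by 2.77 (limma adjusted p = 4.38e-07). The other, the water channel AQP1, was at 14.4, 10.1 and 17.1 scaled FPKM with sh-NC, 6.58, 4.55 and 8.58 with sh-B7-H3 (1) and 20.6, 3.02 and 3.44 with sh-B7-H3 (2), where replicate 1 stood apart. It was not called for both shRNAs (-0.99, limma adjusted p = 0.165) but was called lower with sh-B7-H3 (1) (-0.98, limma adjusted p = 0.0344), and without sh-B7-H3 (2) replicate 1 the list held 1 gene higher and 1 lower for both shRNAs and for sh-B7-H3 (2).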

How the data were processed

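RNA of 15 libraries of 105K tumors and sorted tumor cells had been sequenced and processed with the VIPER pipeline, per the study's methods, and submitters' processing notes name build mm10. The aligner and annotation were not given in the sources used here. The authors deposited FPKM for 24917 entries, with 3 libraries in each of 5 groups taken from the labels. A further table of log2(FPKM + 1) of 1000 of these genes, deposited by the authors, was not used. After 26 entries with symbols turned into dates were left out, FPKM were divided by median-ratio factors (0.65 to 1.18) over 9872 genes, because MIR6236 took an uneven share of the sums. That share was 41.6% and 79.7% in bulk sh-NC replicates 2 and 3. It was 74.4% in bulk sh-B7-H3 (1) replicate 2, 51.65% in sorted sh-NC replicate 2 and 6.01% to 30.0% in the others. Without bulk sh-B7-H3 (1) replicate 2, CD24A was called in bulk tumors, and the part of MIR6236 in that was not tested. After addition of 1 as pseudocount, log2 values were fitted by limma (3.58.1, R 4.3.3) with its trend option and Benjamini-Hochberg adjustment, for genes that reached 1 scaled FPKM in 3 libraries of the comparison. The test had been planned for counts if the table held them. Tests planned for HAVCR1, MMP7 and IL2RG in the comparison of both shRNAs, and for IL2RG between bulk and sorted sh-NC, were left out because the choice of genes or the filter entered their outcome. The limma step was tested on simulated data. Exact permutation tests, promoters (RefSeq, GRCm38.p6) and plots used Python 3.11.15 with numpy 2.4.6, pandas 2.3.3, scipy 1.17.1 and matplotlib 3.10.9.

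The genes and lists were chosen with earlier results of these data known. Named are all 10 genes, CD276, the 3 genes most like each of HAVCR1, MMP7 and IL2RG, and of each list up to 4 called genes with the largest difference, except 1 gene that is counted but not reported here. List members whose levels are given without being called, and CDKN2B and IL1RL1 levels, were picked after their values were seen. Replicates are labelled as biological samples. Libraries with the same number deviated together between the sorted cells of both shRNAs (r = 0.514, 0.431 and 0.443 over 10041 genes), so the replicate block is given for that contrast. Replicates correlated at r from 0.955 to 0.995. Alternatives used deposited FPKM, quantile normalization, a pseudocount of 0.1, no filter, all groups in 1 fit, 3 group means, the replicate block, a leukocyte score, or left out each library. List counts without sorted sh-B7-H3 (2) replicate 1 were added after seeing the data. Depth is known only between libraries, so no counting interval is given.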

Additional observations from a re-analysis of the deposited data

How the results depend on the processing

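Of 639 refitted differences of the tested genes, 592 kept their direction and side of the threshold. Of 168 refits of differences that had been called, 160 stayed called and 8 did not, and none turned around. For both shRNAs against sh-NC, 3 of the 7 genes were called, and on deposited FPKM CD24A too. Leaving out a library gave 3 of the genes and 1414 to 2584 of all genes called. For sh-B7-H3 (1), the leukocyte score left 632 of all genes and 1 of the 7, the replicate block 915 of all genes, and leaving out a library gave 722 to 1948 and 3 to 4. For sh-B7-H3 (2), the replicate block left 1395 of all genes, and leaving out a library gave 962 to 3614, with 3 of the 7 throughout. Between the shRNAs 382 genes became 137 without a filter, 1864 with the replicate block, 1070 with the leukocyte score and 35 to 890 without a library. In bulk tumors 2520 genes became 961 on deposited FPKM, 1413 with the replicate block, which also lost VCAM1 (adjusted p = 0.0628), 4674 with the leukocyte score, which called 5 of the genes (IL2RG and CD24A joined), and 546 to 3793 without a library, with 2 to 4 of the genes. For sh-NC bulk against sorted, 1924 genes became 652 on deposited FPKM, 3082 in 1 fit, 0 with the leukocyte score, which runs with the groups, and 139 to 4436 without a library, with 0 of the genes. The replicate block there called 1 of the genes, LCN2, at adjusted p = 0.0428. For the sh-B7-H3 (1) effect in sorted cells minus that in bulk, 56 genes became 128 on deposited FPKM, 25 with a pseudocount of 0.1, 36 in 1 fit, 24 with the replicate block, 108 with the leukocyte score and 12 to 72 without a library, always with 0 of the 7. The cause was not tested. Outside the sorted cells of both shRNAs, same-numbered libraries correlated at r from -0.662 to 0.361. No other pair of groups had a positive correlation for every replicate number. For bulk and sorted sh-NC it was positive for replicates 1 and 3 (up to 0.361) and negative for replicate 2 (-0.137). Pairing of those libraries was thus partial at most. The block changed no further call of the 10 genes.

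Uncalled differences near 0 turned around. On deposited FPKM these were SPP1 for both shRNAs (0.030), SOX4 for sh-B7-H3 (1) (0.017), SOX9 in bulk (0.013), VCAM1 for sh-NC bulk against sorted (-0.11) and the CD24A effect difference (0.060). With quantile normalization they were SOX9 in bulk (0.062), VCAM1 for sh-NC (-0.072) and the SPP1 effect difference (-0.23). With the leukocyte score they were SOX9 in bulk (0.043) and, for sh-NC bulk against sorted, VCAM1 (-0.79), SOX4 (-0.41), PROM1 (4.28) and CD24A (1.91). Without a library, SPP1 with sh-B7-H3 (2) ran from -0.010 to 0.75, SOX9 with sh-B7-H3 (2) from -0.11 to 0.23, SOX9 in bulk from -0.16 to 0.10, VCAM1 for sh-NC from -0.14 to 0.12, SOX9 for sh-NC from -0.32 to 0.017, and the effect differences of SPP1 from -0.093 to 0.24 and of CD24A from -0.44 to 0.13.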
